A study of Mus musculus with 12 samples.

Results

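The transcripts of 9 enzymes of the methionine cycle and of one-carbon metabolism were examined in mouse liver: Mat1a, Gnmt, Bhmt, Cbs, Cth, Shmt1, Shmt2, Pemt and Nnmt. They were chosen by name, as the genes whose symbol in the array's annotation matches one of the 9, and all 9 were measured, by 11 of the 35556 probe sets. They are 9 of the 19938 genes tested. The study put total liver RNA of 12 male C57BL/6J mice on Affymetrix arrays, with 1 array for each mouse. In 6 mice (K289R) a knock-in changed a lysine of LRH-1 to arginine, and the other 6 mice were wild type (WT). LRH-1 is a liver nuclear receptor encoded by Nr5a2, and the changed lysine is a site where the small protein SUMO is attached. Livers of both groups were taken after a fast of 24 h followed by 6 h of refeeding. The labels give neither the age of the mice nor how the knock-in line was bred.

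In the methionine cycle, methionine is turned into S-adenosylmethionine, which gives its methyl group to an acceptor and becomes homocysteine. Homocysteine is either methylated back to methionine or passed through transsulfuration to cysteine, and serine feeds both the folate cycle and transsulfuration. The liver carries most of the body's methionine breakdown, and several of the enzymes, among them Mat1a, Gnmt and Bhmt, mark mature hepatocytes. The comparison asks whether the transcripts of these enzymes differed between K289R and WT livers in the refed state.

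Values are the deposited probe-set intensities in linear units, and differences are given on the log2 scale as K289R minus WT. The pairwise correlation of arrays over all log2 values was 0.979 to 0.991. The hepatocyte marker Alb, the gene of serum albumin, averaged 7134 ± 477 in K289R and 7067 ± 373 in WT (SD, n = 6 each). Nr5a2 averaged 324 ± 18.4 in K289R and 303 ± 27.1 in WT (adjusted p = 0.582). Whether its probe set covers the changed base was not tested, so its level is no check of the genotype. The mean log2 level of 12 pancreatic acinar markers was 8.28 on array K289R 1 and 8.86 on array K289R 3, and at most 4.59 on every other array. The mean log2 level of 16 acute phase genes was 9.32 on WT 1 and 9.44 on WT 3, and 7.65 to 8.42 on the other arrays. The 9 skeletal muscle markers stood at 7.32 on WT 1 and 6.02 on K289R 3, and at 4.29 to 4.75 on the others. Fits without some or all of these arrays are given beside a part of the results. In whole liver, fewer cells of a type and less RNA per cell cannot be told apart.

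None of the 9 enzymes passed the test over all genes, in which 0.572% of the 19938 genes were called (limma, Benjamini-Hochberg adjusted p under 0.05), 0.481% as higher and 0.0903% as lower in K289R. At an unadjusted p under 0.05 there were 2 of the 9, Cth and Shmt1, both higher in K289R, against 12% of all genes. Of the 9, 3 had a positive and 6 a negative log2 difference, with a median of -0.001 against -0.01 over all genes. The 95% interval of the difference lay within 1.5-fold in either direction for all 9 enzymes, as it did for 97.1% of all genes. Each gene is represented here by its brightest probe set. The interval of another Bhmt probe set, 10411142, ran from 1.07-fold to 1.57-fold. In no enzyme were the K289R arrays fully apart from the WT arrays, which was the case for 1.24% of all genes (0.853% higher and 0.391% lower in K289R). All 9 measured above the array median (26.8 to 29.2) on all 12 arrays, so none was dim.

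**Figure D1:**
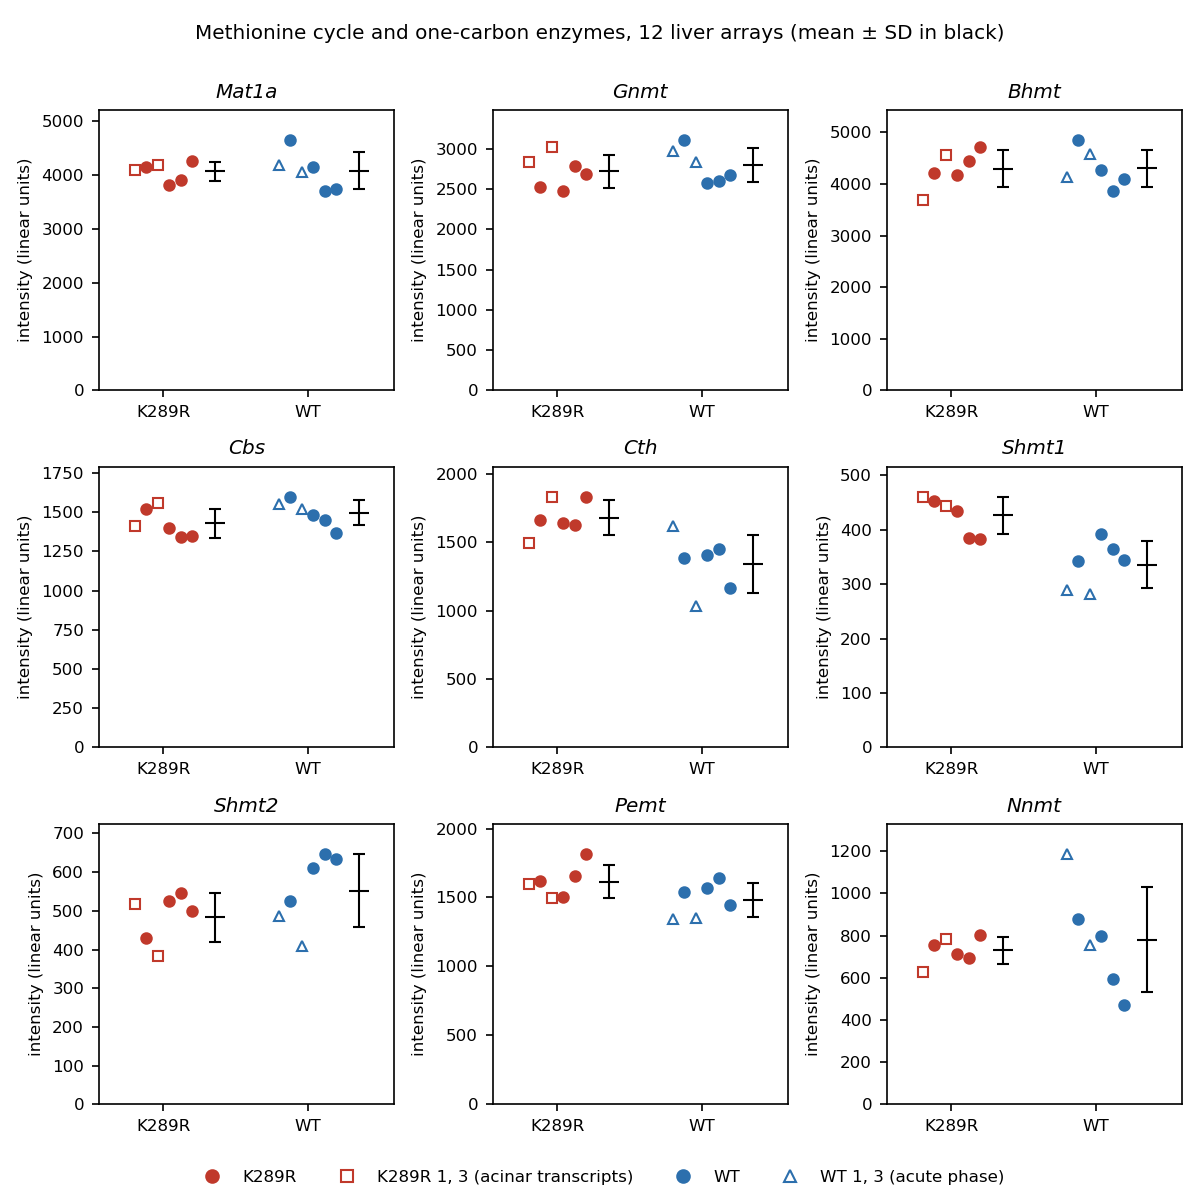
Intensity of each enzyme on the 12 arrays (linear units, axes from 0), with K289R to the left of WT and the mean ± SD of 6 arrays in black. Open squares are K289R 1 and 3, which carried pancreatic transcripts, and open triangles are WT 1 and 3, which were high in acute phase genes. The groups overlap in all 9 panels, and the K289R points of Cth and Shmt1 lie mostly above the WT points.

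Mat1a encodes the liver form of methionine adenosyltransferase, which makes S-adenosylmethionine. Its intensity had a lowest value of 3807, a median of 4115 and a highest value of 4259 in K289R livers, against 3700, 4098.5 and 4645 in WT livers. All K289R values lay inside the WT range. The log2 difference was -0.001 (95% interval -0.14 to 0.14, adjusted p = 0.997), that is between 0.905-fold and 1.10-fold. The SD of log2 values was 0.06 in K289R and 0.12 in WT.

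Gnmt encodes glycine N-methyltransferase, which uses up excess S-adenosylmethionine by methylating glycine to sarcosine. It ran from 2473 over a median of 2738 to 3029 in K289R, and from 2582 over 2761 to 3111 in WT. The ranges overlapped almost fully, with a log2 difference of -0.04 (95% interval -0.19 to 0.11, adjusted p = 0.854). Leaving out K289R 1 and 3 gave -0.09, and leaving out WT 1 and 3 gave -0.01.

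Bhmt encodes betaine-homocysteine methyltransferase, which remethylates homocysteine with betaine as the methyl donor. Its brightest probe set, 10511886, measured 3686, 4330 and 4713 (lowest, median and highest) in K289R, against 3856, 4204.5 and 4849.5 in WT. The means were 4298 ± 364 and 4298 ± 358 (SD, n = 6 each). The log2 difference was -0.0006 (95% interval -0.16 to 0.16, adjusted p = 0.998). The signs of the Mat1a and Bhmt differences depended on the scaling, since both turned positive when array medians are made equal (0.04 each), and Bhmt also under quantile normalization (0.02).

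The 3 probe sets of Bhmt did not all behave alike. Probe set 10457114 followed the first one closely over the 12 arrays, with a log2 difference of -0.002. Probe set 10411142 had 412, 482 and 690 (689.9) in K289R, against 296, 394 and 481 in WT. On it 3 of the 6 K289R arrays lay above all WT arrays, and the log2 difference was 0.38 (95% interval 0.10 to 0.65, adjusted p = 0.251 over 21789 probe sets). Its highest array was K289R 3, which carried acinar and muscle transcripts, and without it the difference was 0.28, again not called. Averaging the 3 probe sets gave 0.12 (adjusted p = 0.565). Bhmt2, a close paralog that lies beside Bhmt, averaged 1420 ± 86.4 in K289R and 1294 ± 208 in WT (log2 difference 0.15, adjusted p = 0.546). Its lowest array was WT 1 at 993.4, and without it the difference was 0.07 (adjusted p = 0.740). Whether RNA of one paralog binds probes of the other was not tested.

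**Figure D2:**
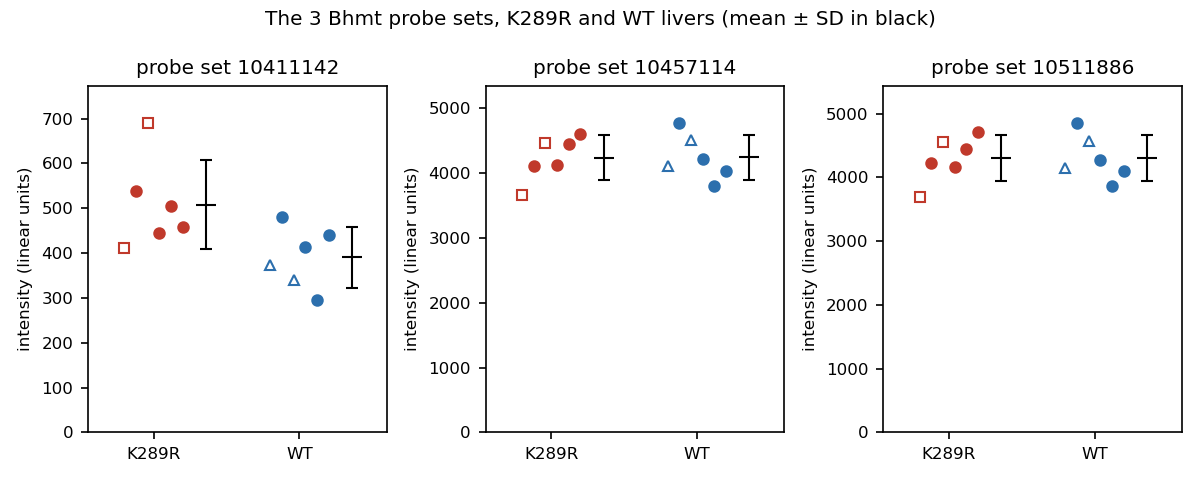
Intensity of the 3 Bhmt probe sets on the 12 arrays (linear units, axes from 0), K289R left of WT, mean ± SD of 6 arrays in black, with open squares for K289R 1 and 3 and open triangles for WT 1 and 3. Probe sets 10457114 and 10511886 correlate at 0.996 over the arrays and have log2 differences of -0.002 and -0.0006, whereas 10411142 averages 508 in K289R and 391 in WT.

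Of the 9 enzymes, 6 have an entry in the RefSeq promoter table (GRCm38.p6), and Mat1a, Cth and Nnmt do not. The 250 bases before the annotated start were searched on both strands for the LRH-1 element CAAGGNCA, the amino acid response element core TGATGNAA, the TATA box TATAAA, the GC box GGGCGG and the CCAAT box CCAAT. Bhmt was the only one of the 6 with an LRH-1 element, which 5.53% of the 32851 promoter windows of that length hold. The log2 difference of Bhmt was -0.0006 on its brightest probe set and 0.38 on probe set 10411142, neither of them called. A part of the element in these values was not tested. The Bhmt window is shown because it holds the match. It lies at chr13:93637759-93638008 on the minus strand. Capitals mark the LRH-1 element CAAGGTCA, from 74 to 67 bases before the start, and 1 CCAAT box read on the opposite strand.
Bhmt: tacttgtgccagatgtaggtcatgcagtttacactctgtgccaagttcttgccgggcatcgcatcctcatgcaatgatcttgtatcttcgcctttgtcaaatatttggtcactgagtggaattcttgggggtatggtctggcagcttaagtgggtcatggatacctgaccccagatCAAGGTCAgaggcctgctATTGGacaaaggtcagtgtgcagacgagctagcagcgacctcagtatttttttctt
None of the 6 held the amino acid response element core, which 3.45% of all windows hold. A match of letters is a description of the window and not a site of binding.

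Transsulfuration runs through Cbs and then Cth. Cbs encodes cystathionine beta-synthase, which joins homocysteine and serine to cystathionine. It measured 1340, 1404 and 1560 (1559.6) in K289R (lowest, median and highest), against 1371, 1504 and 1597 in WT. The groups overlapped, with 2 K289R arrays below all WT arrays, and the log2 difference was -0.07 (95% interval -0.20 to 0.07, adjusted p = 0.697).

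Cth encodes cystathionine gamma-lyase, which cleaves cystathionine to cysteine and can also release hydrogen sulfide. It measured 1493, 1653 and 1830.5 in K289R, against 1032, 1397.5 and 1617 in WT. Of the 6 K289R arrays 5 lay above all WT arrays, and the exception was K289R 1. The means were 1680.5 ± 129.9 in K289R and 1343 ± 211 in WT (SD, n = 6 each), a log2 difference of 0.34 (95% interval 0.13 to 0.54) or 1.26-fold. It did not pass over all genes (adjusted p = 0.165). WT 1 was the highest and WT 3 the lowest WT array for Cth. Without both the difference was 0.32 (adjusted p = 0.171), and it was 0.35 without K289R 1 and 3 (adjusted p = 0.329).

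Serine hydroxymethyltransferases take a carbon from serine to tetrahydrofolate and leave glycine, in the cytosol (Shmt1) and in mitochondria (Shmt2). Shmt1 measured 383, 439 and 460.2 in K289R, against 281, 344 and 393 in WT. Of the K289R arrays 4 lay above all WT arrays, and 5 of the 6 WT arrays lay below all K289R arrays. The log2 difference of 0.35 (95% interval 0.17 to 0.54), or 1.28-fold, was close to that of Cth and did not pass over all genes (adjusted p = 0.0947). The lowest WT arrays were WT 3 (281) and WT 1 (289.4), the arrays high in acute phase genes. WT 1 was also high in skeletal muscle markers. Without WT 1 and 3 the difference was 0.24 (adjusted p = 0.312), and without K289R 1 and 3 as well it was 0.19 (adjusted p = 0.627). The parts of the acute phase state and of muscle transcripts in this difference were not tested.

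Shmt2 measured 383, 508 and 545 in K289R, against 409, 569 and 647 in WT. WT 4, 5 and 6, at 611, 647 and 634, lay above every K289R array, whereas WT 1, 2 and 3 fell within the K289R range. The log2 difference was -0.18 (95% interval -0.43 to 0.06, adjusted p = 0.539). It was -0.33 without WT 1 and 3 (adjusted p = 0.280) and -0.13 without K289R 1 and 3 (adjusted p = 0.782).

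The promoters of this pair are shown because both enzymes run the same reaction and their differences had opposite signs, neither of which passed the test. The Shmt1 window lies at chr11:60811266-60811515 on the minus strand and holds 4 GC boxes, 2 of which overlap, and 1 CCAAT box. The Shmt2 window lies at chr10:127522445-127522694 on the minus strand and holds none of the 5 motifs. Capitals mark the motifs found.
Shmt1: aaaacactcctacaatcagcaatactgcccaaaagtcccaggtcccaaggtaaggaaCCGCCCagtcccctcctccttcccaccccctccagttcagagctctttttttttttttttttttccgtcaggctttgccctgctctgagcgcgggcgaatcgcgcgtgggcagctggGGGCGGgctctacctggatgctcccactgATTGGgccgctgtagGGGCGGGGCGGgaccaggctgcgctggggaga
Shmt2: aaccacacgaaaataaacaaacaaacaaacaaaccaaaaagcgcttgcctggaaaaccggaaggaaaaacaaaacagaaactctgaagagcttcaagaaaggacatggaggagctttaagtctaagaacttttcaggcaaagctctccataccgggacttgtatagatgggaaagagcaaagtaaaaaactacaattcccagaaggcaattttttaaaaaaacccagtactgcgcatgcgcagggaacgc
The GC content was 60.0% for Shmt1 and 40.8% for Shmt2, against a median of 52.4% over all windows. GC boxes occur in 32.7% and CCAAT boxes in 33.8% of all windows.

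Because these enzymes act as pairs, the ratio of 2 transcripts on the same array is described for 3 pairs. The pairs were chosen after the values of their genes were seen, so the ratios restate those values and no test is given. A ratio on 1 array does not depend on a constant scaling of that array. The log2 ratio of Shmt1 over Shmt2 was -0.17 ± 0.27 in K289R and -0.71 ± 0.13 in WT (SD, n = 6 each). The lowest K289R ratio (-0.50) exceeded the highest WT ratio (-0.54), so the groups did not overlap. The difference was 0.53. The ratio of Cth over Cbs was 0.23 ± 0.13 in K289R and -0.17 ± 0.22 in WT, a difference of 0.40. Here too the groups were apart, with a lowest K289R ratio of 0.08 and a highest WT ratio of 0.06. Both gaps are narrow against the spread of the groups, and how often ratios of other gene pairs are apart was not computed. Without the 4 arrays that stood apart the differences were 0.47 and 0.40.

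**Figure D3:**
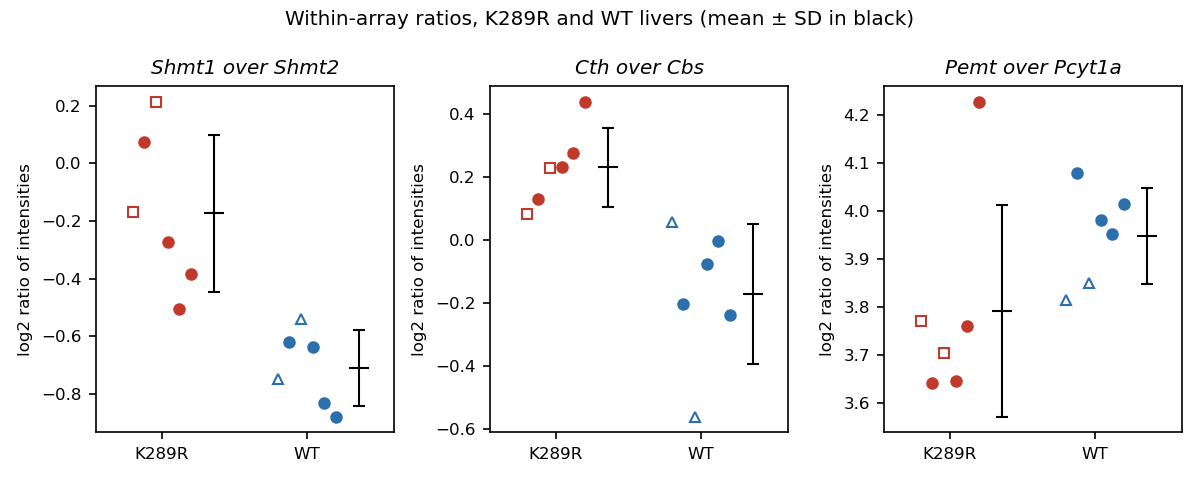
Log2 ratio of 2 transcripts on the same array for 3 pairs of enzymes, K289R left of WT, with the mean ± SD of 6 arrays in black, open squares for K289R 1 and 3 and open triangles for WT 1 and 3. The axes do not start at 0, and the pairs were chosen after the values of their genes were seen. All 6 K289R ratios lie above all 6 WT ratios for Shmt1 over Shmt2 and for Cth over Cbs, and the groups overlap for Pemt over Pcyt1a.

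Pemt and Nnmt both spend S-adenosylmethionine. Pemt encodes phosphatidylethanolamine N-methyltransferase, which makes phosphatidylcholine and is the liver's own route to choline. It measured 1496, 1610.0 and 1815 in K289R, against 1344, 1495 and 1638 in WT, with 2 K289R arrays above all WT arrays. The log2 difference was 0.13 (95% interval -0.03 to 0.28, adjusted p = 0.505). WT 1 and WT 3, at 1344 and 1349, were the lowest of all 12 arrays, and without them the difference was 0.06 (adjusted p = 0.799). Pcyt1a, the rate-controlling enzyme of the other route to phosphatidylcholine, had a log2 difference of 0.28 (95% interval 0.12 to 0.44, adjusted p = 0.120). For Pcyt1a 5 of the 6 K289R arrays exceeded the highest WT array. Without K289R 6 the difference was 0.33 and passed (adjusted p = 0.0254). It did not pass in the other 23 alternatives, where the adjusted p reached 0.531 without the 4 arrays that stood apart. The ratio of Pemt over Pcyt1a was 3.79 ± 0.22 in K289R and 3.95 ± 0.10 in WT (difference -0.16). Without K289R 6, whose ratio of 4.23 was the highest, the difference was -0.24.

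Nnmt encodes nicotinamide N-methyltransferase, which methylates nicotinamide and thereby draws on the methyl pool. It measured 629, 734 and 802 in K289R, against 470.4, 778 and 1186.5 in WT. The K289R arrays all lay inside the WT range, with 2 WT arrays above and 2 below every K289R array. The SD of log2 values was 0.13 in K289R and 0.46 in WT, the widest WT spread of the 9 enzymes. No test of the spread was made. The log2 difference was -0.04 (95% interval -0.38 to 0.30, adjusted p = 0.940). The highest WT value was on WT 1, and without WT 1 and 3 the difference was 0.13 (adjusted p = 0.770).

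**Figure D4:**
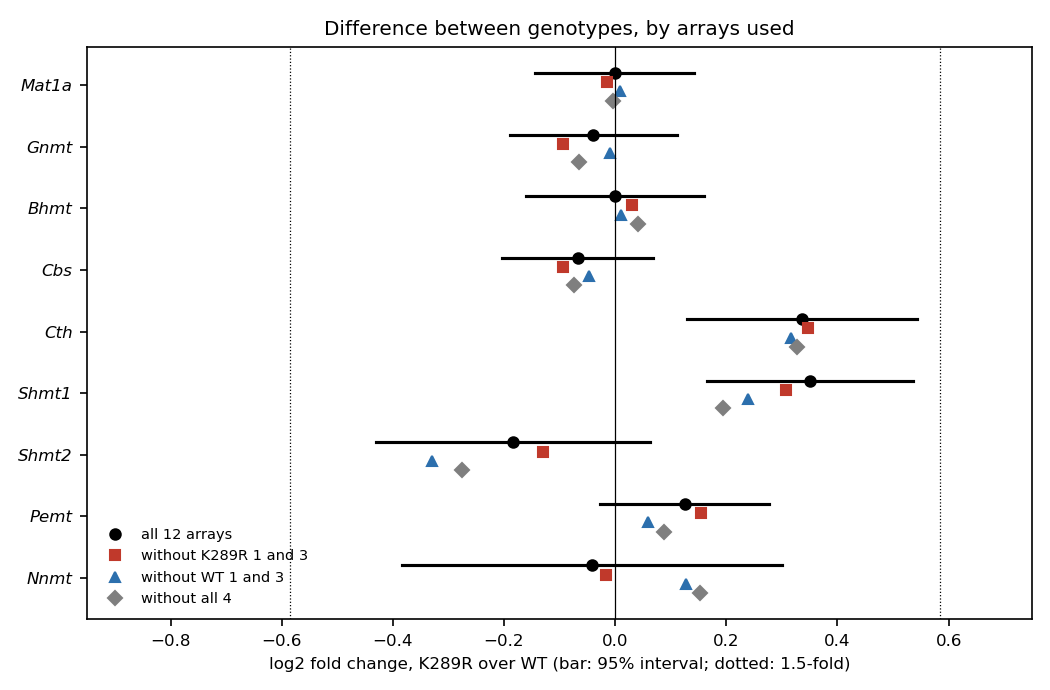
Log2 fold change of each enzyme, K289R over WT, with the 95% interval from all 12 arrays as a bar and dotted lines at 1.5-fold. Squares, triangles and diamonds give the difference without K289R 1 and 3, without WT 1 and 3, and without all 4. All 9 bars, each from the brightest probe set of its gene, lie inside the dotted lines. Those of Cth and Shmt1 exclude 0. The difference of Shmt1 was 0.35 with all 12 arrays and 0.19 without the 4 arrays.

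Within the groups, the enzymes followed each other to different degrees. After each group's mean was removed, correlations of log2 values over the 12 arrays ran from -0.76 to 0.68 across the 36 pairs, with a median of 0.13. The most opposed pair was Cbs and Shmt2 (Pearson's r = -0.76, Spearman's rho = -0.78, and r = -0.64 without K289R 3 and WT 6). These values share the arrays and their scaling and are given as a description. For the 3 enzymes with the smallest p, the genes most like them among 19937 were 5330416C01Rik, Olfr1355 and Tsc22d1 for Shmt1 (r = 0.90, 0.89 and 0.89). They were Dusp16, Mrpl12 and Sgca for Cth (r = 0.94, 0.91 and 0.91) and Wdr18, Tmem117 and Uqcrc1 for Pemt (r = 0.91 each). Each is the highest of many correlations over 12 arrays, and none of these genes was called between the genotypes.

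In 11 pathway lists that include the 9 enzymes, 121 genes were measured (140 were listed). Of these, 2 were called, As3mt and Asns, both higher in K289R, where 0.572% of all genes were called in either direction. At an unadjusted p under 0.05 there were 24, Cth and Shmt1 among them, all higher in K289R, that is 19.8% against 6.42% of all genes. All genes include dim ones, and the share among brighter genes alone was not computed. The lists were chosen with earlier results of these data known, so these shares are a description and not a test. Of the 121, 81 had a positive log2 difference, and the median was 0.06 (-0.01 over all genes). Equal array medians took the list median to 0.10 and the median of all genes to 0.03. Leaving out dim genes, those with a mean level below that of the median gene, took these medians to 0.07 and 0.02. That fit called 164 genes, 3 of them in the lists. Without WT 1 and 3, the arrays high in acute phase genes, the list median was 0.034, and without all 4 arrays it was 0.035. Without WT 1 and 3 the medians of folate, of transsulfuration and of nicotinamide and NAD were 0.04, 0.03 and -0.005. The parts of the acute phase state and, on WT 1, of muscle transcripts in these medians were not tested.

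The 9 measured genes of the methionine cycle list ran from -0.04 to 0.15 with a median of -0.0006, and none had an unadjusted p under 0.05. Methionine synthase (Mtr), which remethylates homocysteine with folate, averaged 36.6 ± 4.49 in K289R and 33.9 ± 3.08 in WT (log2 difference 0.11, adjusted p = 0.620, and 0.16 without WT 1 and 3). In the 9 genes of methionine salvage and polyamines the median was 0.03, and -0.002 without WT 1 and 3. The polyamine oxidase Smox had 0.17 (adjusted p = 0.396) and the salvage enzyme Apip 0.14 (adjusted p = 0.421, and 0.08 without WT 1 and 3). The 9 cobalamin genes, which handle the cofactor of methionine synthase, had a median of 0.005 (-0.02 without WT 1 and 3), with 0.15 for Mmadhc (adjusted p = 0.440) and -0.07 for the receptor Cd320 (adjusted p = 0.663).

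None of the 12 genes of transsulfuration, cysteine and glutathione, Cbs and Cth included, was called, and 4, Cth among them, had an unadjusted p under 0.05. Sulfite oxidase (Suox), the last step of cysteine's oxidation to sulfate, measured 509, 535 and 552 in K289R, against 402, 472 and 501 in WT. Its groups did not overlap, but its log2 difference of 0.22 (95% interval 0.08 to 0.37) did not pass (adjusted p = 0.183).

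Of the 16 folate genes 13 had a positive difference, the median was 0.07 and none was called. Slc25a32, which carries folate into mitochondria, measured 96.3, 109.6 and 131 in K289R, against 72.2, 85.6 and 109.4 in WT. Its log2 difference was 0.40 (95% interval 0.19 to 0.62, adjusted p = 0.103). The highest WT array was WT 1, and without it the difference was 0.47 (adjusted p = 0.0253). The threshold was missed when WT 1 and 3 were both left out (0.49, adjusted p = 0.0541) and when all 4 arrays were (0.46, adjusted p = 0.154).

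Among 10 serine and glycine genes the median was 0.07, against 0.13 with dim genes left out and 0.14 without WT 4. Gldc, the glycine decarboxylase of the mitochondrial glycine cleavage system, measured 779.7, 829.9 and 893 in K289R, against 651, 697 and 758 in WT, and the groups did not overlap. Its log2 difference of 0.25 (95% interval 0.12 to 0.38) missed the threshold (adjusted p = 0.0947). It passed with equal array medians (adjusted p = 0.0364), with dim genes left out (adjusted p = 0.0435) and with 16 added before log2 (adjusted p = 0.0253). It did not pass in the other 21 alternatives, where the adjusted p reached 0.534 without the 4 arrays that stood apart. Agxt2, a mitochondrial aminotransferase that uses glyoxylate, had 0.24 (adjusted p = 0.268, and 0.17 without WT 1 and 3). The serine synthesis enzymes Phgdh, Psat1 and Psph had 0.02, -0.03 and 0.13, and none was called.

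Of the 7 choline, betaine and sarcosine genes 6 had a positive difference, with a median of 0.11 (0.08 without WT 1 and 3). Pipox, a peroxisomal oxidase of sarcosine and pipecolate, averaged 1093 ± 80.0 in K289R and 895 ± 101.7 in WT (log2 difference 0.29, adjusted p = 0.139). Its lowest arrays were WT 3 and WT 1, at 742 and 853, and without them the difference was 0.21 (adjusted p = 0.377). The choline transporter Slc44a1 had 0.16 (adjusted p = 0.419). In the 8 genes of phosphatidylcholine synthesis the median was 0.12, and 0.07 without WT 1 and 3. After Pcyt1a, the smallest p was that of Cept1, which joins choline or ethanolamine to diacylglycerol (log2 difference 0.21, adjusted p = 0.312). The 16 nicotinamide and NAD genes had a median of 0.04. Tdo2, which opens the tryptophan route to NAD, had 0.27 (adjusted p = 0.334). Its lowest arrays were WT 3 and WT 1, at 1831 and 1956, and without them the difference was 0.13 (adjusted p = 0.642). The mitochondrial NAD kinase Nadk2 had 0.16 (adjusted p = 0.400).

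As3mt, a methyltransferase that uses S-adenosylmethionine to methylate arsenic, was the called gene among 9 methyl acceptor enzymes. It measured 227, 254 and 284 in K289R, against 136, 156 and 189 in WT, and every K289R array lay above every WT array. It rose by 0.71 on the log2 scale (95% interval 0.52 to 0.89), or 1.63-fold, with an adjusted p = 0.000441. The call held without the 4 arrays that stood apart and in all 12 fits that left out 1 array. The list had a median of 0.17 (0.13 without WT 1 and 3), and 8 of its 9 genes were not called. Of the 9, 7 had a positive difference, and 4, As3mt among them, had an unadjusted p under 0.05. These 4 were all higher in K289R (44.4% against 6.42% of all genes).

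The list of 21 genes of the ATF4 response, which cells switch on when amino acids run short and which includes serine and folate enzymes, had 1 called gene, asparagine synthetase (Asns). Its log2 difference was 3.89 (adjusted p = 5.32e-11), whereas the list median was 0.08. Of the 21, 13 had a positive difference, and 4, Asns among them, had an unadjusted p under 0.05. These 4 were all higher in K289R (19% against 6.42% of all genes). Mthfd2 and Aldh1l2, mitochondrial folate enzymes of that list, had 0.19 (adjusted p = 0.456) and -0.14 (adjusted p = 0.449). Atf4 itself had -0.09 (adjusted p = 0.770).

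**Figure D5:**
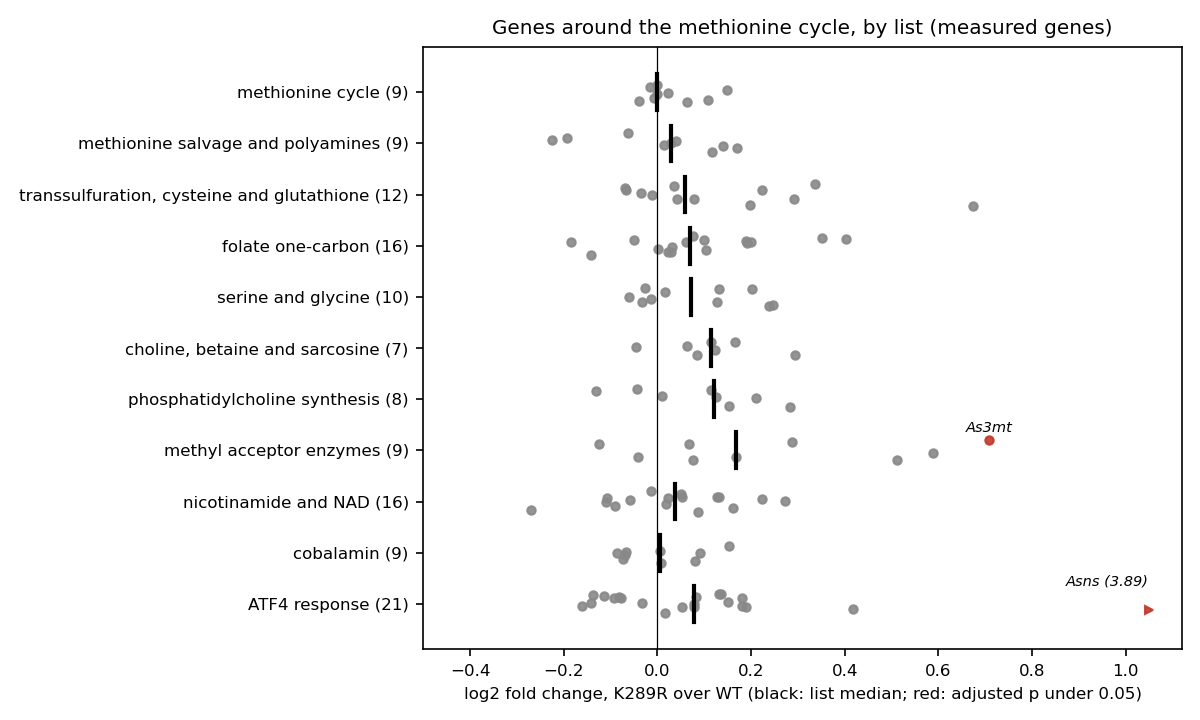
Log2 fold change, K289R over WT, of the measured genes in 11 pathway lists, with the number of measured genes in brackets, the list median as a black bar and called genes in red. Asns lies off the scale at 3.89 and is drawn at the edge. List medians run from -0.0006 to 0.17, and As3mt and Asns are the 2 called genes.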

How the data were processed

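Per the labels' protocols, TRIZOL and an RNeasy cleanup gave the liver RNA of 6 K289R and 6 WT mice, which was amplified and biotin-labelled. The files hold summarized linear intensities for each probe set, which the authors made in Affymetrix Expression Console (per the submitters' processing notes). For its version, the normalization and the genome build, the entry is "not given in the sources used here". Array medians were 26.8 to 29.2. Groups follow the sample titles, since the genotype label of 1 WT array carries extra strain text. Of 35556 probe sets 21789 had 1 gene symbol, 1621 several and 12146 none, and 21698 matched RefSeq by gene ID. A gene with several probe sets was represented by the one with the highest mean.

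The log2 of the values, with no pseudocount, was compared by limma 3.58.1 (R 4.3.3, lmFit, eBayes) with genotype as the single term over 12 arrays, adjusted over 19938 genes at 0.05. The fit was tested on simulated data. The number of arrays limits the precision. Of each list, called genes or otherwise the 2 with the smallest p are named, and for the 3 members with the smallest p the 3 genes with the highest within-group correlation. Serine synthesis genes, ATF4-list folate enzymes and neighbours of As3mt were added after values were seen. The members and lists were chosen with earlier results of these data known. Scan dates were not analysed here. Figures were drawn with matplotlib 3.10.9.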

Additional observations from a re-analysis of the deposited data

Results flagged for a closer look

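In 54 groups of 6 arrays (27 genes in each genotype), 2 values stood apart from the rest of their group by Dixon's test on the log2 scale, where chance gives about 5% of groups, or 2.7. Bhmt2 was 1256 on array K289R 4 and 1406 to 1502 on the other K289R arrays. Cd320, the cobalamin receptor, was 43.99 on array WT 4 and 35.8 to 38.25 on the other WT arrays. None of the 9 enzymes had such a value.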

How the results depend on the processing

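In every one of the 24 alternative fits 0 of the 9 enzymes were called, and Gnmt, Cbs, Cth, Shmt1, Shmt2 and Pemt kept their sign. The adjusted p of Shmt1 ran from 0.0541 to 0.627 and that of Cth from 0.0829 to 0.329. The differences of Mat1a, Bhmt and Nnmt lay near 0 and changed sign. Mat1a became 0.036 with equal array medians, 0.013 with array weights and 0.0081 without WT 1 and 3. Bhmt became 0.037 with equal array medians, 0.023 with quantile normalization, 0.12 with the mean of all probe sets, 0.031 without K289R 1 and 3, 0.010 without WT 1 and 3 and 0.042 without all 4 arrays. Nnmt became 0.010 with array weights, 0.13 without WT 1 and 3 and 0.15 without all 4. Leaving out 1 array moved Mat1a between -0.028 and 0.037, Bhmt between -0.031 and 0.043 and Nnmt between -0.18 and 0.091. Of all genes, 114 were called with all arrays, 75 without K289R 1 and 3 and 65 without all 4, and leaving out 1 array gave 81 to 159. Over all 35556 probe sets 76 were called, a count of probe sets and not of genes. Of the 121 list genes 2 were called with all arrays, 4 with equal array medians, and 2 to 4 when 1 array was left out (4 without WT 1). The cause was not tested. Same-numbered arrays of the groups are different mice, with correlations of deviations from -0.23 to 0.23, and 2 of 12 arrays correlated best with their own number. With the replicate number as a block 111 genes and 0 of the 9 enzymes were called. Dim signal does not limit the 9 enzymes, which all measured above the array median, and the precision rests on 6 arrays in each group.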

Other observations

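The called gene As3mt lies on chromosome 19 close to Cyp17a1, a steroid hydroxylase gene that was also higher in K289R (log2 difference 2.08, adjusted p = 9.33e-06). In the RefSeq order 1 protein-coding gene, Borcs7, lies between them. Borcs7, a subunit of a complex that positions lysosomes, averaged 59.7 ± 5.90 in K289R and 41.9 ± 4.18 in WT (SD, n = 6 each), a log2 difference of 0.51 (limma, adjusted p = 0.00536), with no overlap between the groups. Of the 4 measured protein-coding genes on either side (Trim8, Arl3, Sfxn2 and Wbp1l beyond Cyp17a1, and Cnnm2, Nt5c2, Ina and Pcgf6 beyond As3mt) none was called. The nearest, Wbp1l and Cnnm2, differed by 0.16 on the log2 scale (adjusted p = 0.518) for the first and 0.14 (adjusted p = 0.513) for the second. These neighbours were looked up after the value of As3mt was seen.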
